A study of Mus musculus with 12 samples.

Results

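Transcripts of 9 genes of the NF-kB pathway were followed in T cell and macrophage isolates of lung tumours from mice. They are the 5 subunit genes Nfkb1, Nfkb2, Rel, Rela and Relb, the kinase genes Chuk and Ikbkb, and the inhibitor genes Nfkbia and Tnfaip3. The members were chosen by symbol, all 9 were found among the 770 genes of a NanoString immune panel, and all 9 passed the filter on low signal in every comparison. NanoString counts RNA molecules directly with barcoded probes, and the deposited value is 1 normalised signal per gene and library. Signals of different genes come from different probes, so levels were compared only within a gene.

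Every library came from lung tumours of the KrasTrp53 genetically engineered mouse model on a mixed background, a feature that the treated and the vehicle groups share. For each of T cells and macrophages the mice had received vehicle, JQ1, which blocks the bromodomains that bind acetylated histones, or ricolinostat, a histone deacetylase inhibitor. This gives 6 groups of 2 libraries. Ages, doses, treatment times, the alleles behind the model's name and the method of cell purification are not given in the sources used here, nor whether the 2 libraries of a group came from separate animals. The p-values therefore rest on how far such libraries lie apart, and this may be technical spread alone. Replicates are numbered in the order of the records, so a number names a library and pairs nothing.

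NF-kB proteins are dimers of the subunits named above. In the canonical branch the kinase complex that holds the Ikbkb and Chuk products marks the inhibitor encoded by Nfkbia for destruction, and dimers such as those of the Rela and Nfkb1 products enter the nucleus. In the non-canonical branch the Chuk product drives processing of the Nfkb2 precursor, whose product pairs with that of Relb. T cells use the pathway downstream of the antigen receptor and macrophages downstream of Toll-like receptors. Activity depends largely on protein location and modification, which transcript signals do not measure.

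All 9 are protein-coding genes, and the data give no coordinates for the probes. In RefSeq GRCm38.p6 Rela (chr19:5637442-5648134), Chuk (chr19:44073334-44107505) and Nfkb2 (chr19:46300994-46312400) share a chromosome. The others are Nfkb1 (chr3:135584655-135691969), Rel (chr11:23736847-23770969), Relb (chr7:19606217-19629438), Ikbkb (chr8:22659205-22706589), Nfkbia (chr12:55489409-55492647) and Tnfaip3 (chr10:19000910-19015410).

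Several of these genes are themselves known targets of NF-kB in a feedback circuit, so the sites in their promoters are shown with them. RefSeq windows of 250 bases before the transcription start (GRCm38.p6) were at hand for 6 of the 9 members, and both strands were searched for the kappa B consensus, the 10-base motif that NF-kB dimers bind. Windows of Nfkb2, Rel, Nfkbia and Tnfaip3 held at least 1 match, and those of Rela and Chuk held none. Among all 32851 promoter windows, 5.0% held a match, and of the 27025 genes with a window 5.67% did. The stretches around the matches nearest to a start are written 5′ to 3′ on the gene's strand, and capitals mark the matches, of which a pair overlaps in Rel.
Nfkb2, chr19:46304678-46304736, plus strand: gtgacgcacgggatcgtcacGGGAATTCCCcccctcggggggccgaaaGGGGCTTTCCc
Rel, chr11:23771031-23771081, minus strand: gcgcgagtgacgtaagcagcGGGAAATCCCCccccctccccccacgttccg
Nfkbia, chr12:55492648-55492696, minus strand: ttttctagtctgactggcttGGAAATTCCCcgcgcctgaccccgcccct
Tnfaip3, chr10:19015411-19015442, minus strand: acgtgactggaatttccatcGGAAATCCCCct
A match is a description of letters and not evidence of binding. Of the members with a match, Nfkb2 and Nfkbia were high in both ricolinostat replicate 2 libraries described below, and Rel and Tnfaip3 were not. Rela and Chuk, which had no match, were high there as well. Any tie between matches and signals was not tested.

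The libraries differ in ways that touch the members. An estimate of counts above background, the total signal divided by the signal that 1 count carries, ran from 1461000 to 2081000 in T cell libraries and from 778900 to 1540000 in macrophage libraries. The member with the lowest signal rested on 143 to 533 such counts. Both ricolinostat replicate 2 libraries stood apart from the other 10. The SD of the log2 difference between the 2 libraries of a group, over the tested genes, was 2.19 in the ricolinostat T cell group and 2.63 in the ricolinostat macrophage group, and between 0.688 and 0.872 in the 4 other groups. The 20 housekeeping genes spread as widely in the ricolinostat groups, with SDs of 2.1 and 2.66, against 0.124 to 0.199 elsewhere. In the labels' numbering these libraries carry the first numbers 33 and 34, while the others carry 8 to 21, and the labels do not say what the numbers stand for. Results are therefore given with and without them.

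The label T cells was checked against 10 T cell markers, which include the CD3 chains and Lck. Their summed signal was 4126 to 4154 in vehicle libraries, 165 in each JQ1 library, and 2637 to 3300.3 in ricolinostat libraries, while it was 107 to 568 in macrophage libraries. All 10 exceeded a signal of 20 under vehicle and under ricolinostat, but 2 to 4 did in the JQ1 T cell libraries. The summed signal of 10 macrophage markers overlapped between T cell libraries, at 780323 to 1358880, and macrophage libraries, at 1098810 to 1273980. Most of that sum was Lyz2 and Chil3, at 639920 and 643822 of 1358880 in vehicle T cell replicate 1. Other markers went both ways. Mrc1 was 14292 to 21205 in T cell libraries and 23836 to 32543 in macrophage libraries. With vehicle, Csf1r was 6899 and 7902 in T cell libraries against 4374 and 5382 in macrophage libraries. Libraries labelled T cells thus held macrophage transcripts, in sum at levels like those of the macrophage libraries. The member signals in libraries labelled T cells cannot be assigned to T cells. In such bulk RNA, fewer cells of a type and less RNA per cell cannot be told apart.

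Away from the ricolinostat replicate 2 libraries, the members were among the steadier genes of the panel. Rela, whose product is the main activating subunit of the canonical dimer, ran from 783 to 988 over the other 10 libraries. Its SD of 0.0914 on the log2 scale was undercut by 0.455% of the 659 tested genes. Ikbkb, the main kinase of the canonical branch, spanned 2154 to 2851, and Nfkb1, whose precursor yields the DNA-binding partner of the Rela product, spanned 1571 to 2112. Between 3.19% and 16.7% of tested genes had a lower SD than Ikbkb, Nfkb1, Chuk, Nfkb2, Relb or Nfkbia. Rel and Tnfaip3 moved most. Rel, a subunit prominent in lymphocyte activation, ranged 2.32-fold with an SD of 0.345, and Tnfaip3, whose product A20 edits ubiquitin chains to switch the pathway off, ranged 2.77-fold with an SD of 0.431. Their SDs exceeded those of 31.3% and 40.5% of the genes, which still places both below the middle of the panel.

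**Figure D1:**
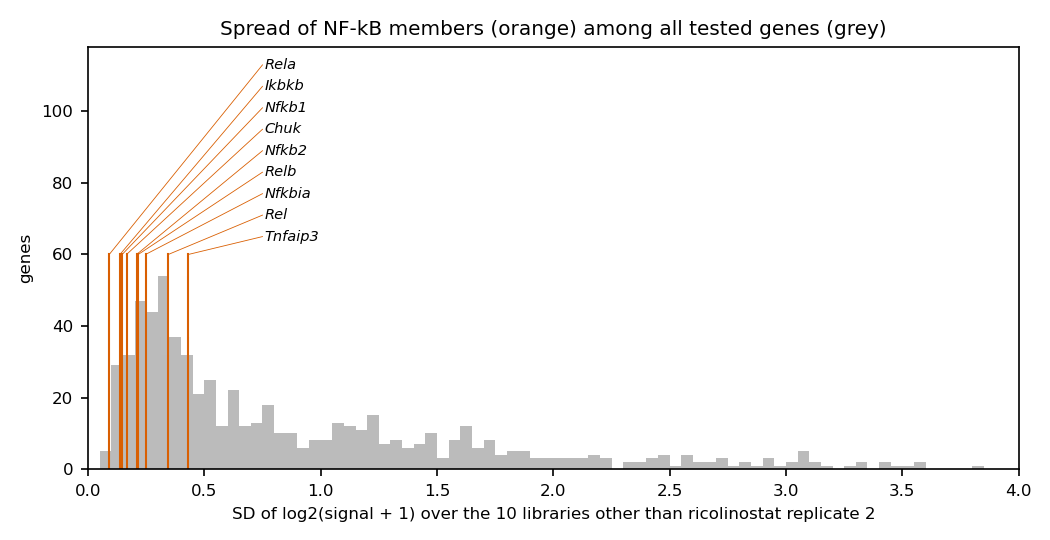
SD of log2(signal + 1) over the 10 libraries other than ricolinostat replicate 2 (x axis) for all 659 tested genes (grey bars, number of genes on the y axis), with each of the 9 members as an orange line. All members lie in the lower part of the distribution, from Rela at 0.0914 to Tnfaip3 at 0.431.

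In both ricolinostat replicate 2 libraries, 6 of the 9 members stood above all other 10 libraries, which also holds for 31.6% of all 659 tested genes and for 8 of the 20 housekeeping genes. The 6 are 4 of the 5 subunits (Nfkb1, Nfkb2, Rela, Relb), the kinase Chuk and the inhibitor Nfkbia. The other 3 did not: Ikbkb stood below the other 10 in both libraries, as did 23.1% of tested genes, Rel stood within their range in both, and Tnfaip3 within it in T cells and below it in macrophages.

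Relb, the non-canonical subunit, had the widest gap of the members. Its signal in T cell libraries was 635 and 805 with vehicle, 598 and 657 with JQ1, and 642 and 9616 with ricolinostat. In macrophage libraries it was 466 and 713 with vehicle, 565 and 727 with JQ1, and 624 and 16584.5 with ricolinostat. Replicate 2 was thus 14.98-fold above replicate 1 of the same group in T cells and 26.6-fold in macrophages, while replicate 1 lay between the vehicle libraries. That log2 difference between replicates, 3.90 in T cells and 4.73 in macrophages, exceeded those of 97.1% and 97.0% of tested genes. Tested genes leave out the housekeeping genes. Of these, Tubb5 differed by 4.02 and 4.98 and Eef1g by -4.36 and -3.66, both singled out after their values were seen.

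Nfkb2, the partner of Relb in the non-canonical dimer, came next. It measured 1119 and 1492 with vehicle, 1132 and 1320.2 with JQ1, and 1084 and 8982 with ricolinostat in T cells. The macrophage values were 1025 and 1573 with vehicle, 1243 and 1439 with JQ1, and 1291 and 12940.5 with ricolinostat. The gap between the ricolinostat replicates was 8.29-fold in T cells and 10.02-fold in macrophages.

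The canonical subunits had smaller gaps. Rela measured 915 and 967 with vehicle, 783 and 892 with JQ1, and 928 and 4537 with ricolinostat in T cells, and 988 and 894, 883 and 913, and 939.96 and 5704 in macrophages in the same order. Nfkb1 measured 1923 and 2112, 1619 and 1571, and 1641 and 6862 in T cells, and 1675 and 2071, 1803 and 1814, and 1815 and 8919 in macrophages. Their ricolinostat replicates differed 4.89-fold and 4.18-fold in T cells and 6.07-fold and 4.91-fold in macrophages. Rel behaved otherwise: its ricolinostat replicates differed 1.52-fold in T cells and 1.09-fold in macrophages, against 1.15-fold to 1.27-fold between the replicates of its other groups, so the T cell gap was wider than in any of those and the macrophage gap narrower.

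The kinases split. Chuk measured 1794 and 1894 with vehicle, 1817 and 1718 with JQ1, and 1404 and 5809.5 with ricolinostat in T cells, and 1889 and 2172, 1998 and 1920.25, and 1734 and 8304 in macrophages. Ikbkb measured 2782 and 2715, 2339 and 2154, and 2401 and 1913 in T cells, and 2739 and 2851, 2688 and 2485, and 2845 and 1838 in macrophages. Between the ricolinostat replicates Chuk was 4.14-fold and 4.79-fold higher in replicate 2, and Ikbkb was lower, at 0.797 and 0.646 of replicate 1. The inhibitors split as well. Nfkbia measured 1884 and 2294 with vehicle, 1673 and 1911 with JQ1, and 1934 and 10395 with ricolinostat in T cells, and 1539 and 2534, 2436 and 2459, and 2209 and 15955 in macrophages, gaps of 5.38-fold and 7.22-fold. Tnfaip3 had ricolinostat replicates of 3364 and 3199.7 in T cells and 3435 and 2149 in macrophages, so replicate 2 stood at 0.951 and 0.626 of replicate 1.

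**Figure D2:**
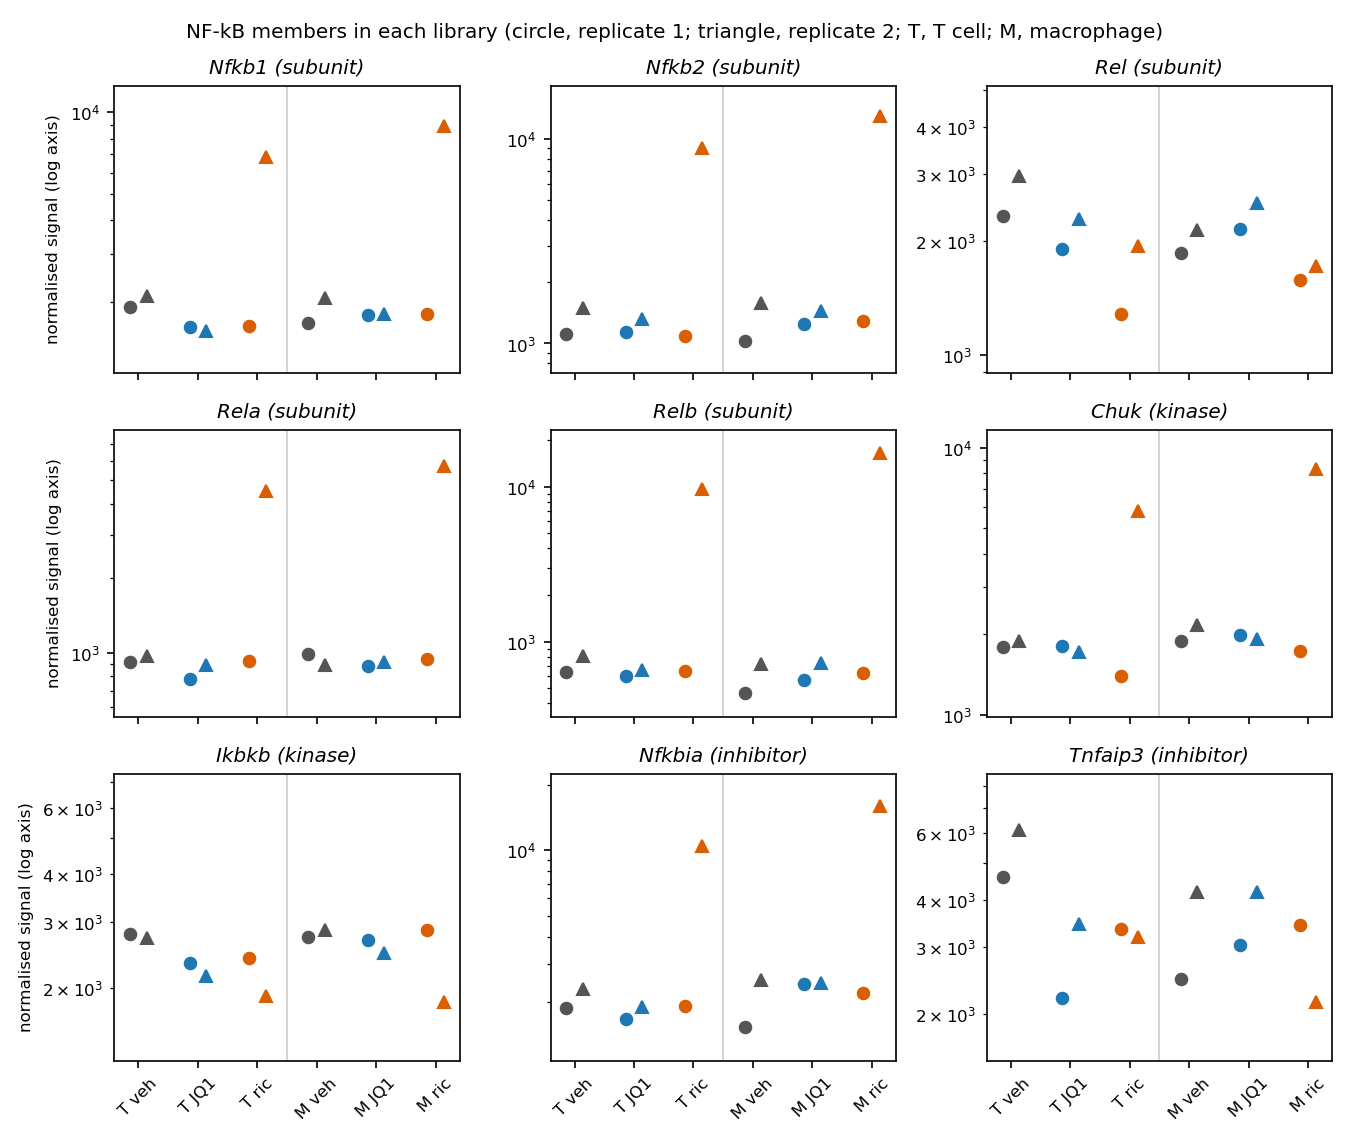
Normalised signal (log y axis, own scale per panel) of each member in the 12 libraries by group, T for T cells and M for macrophages, with circles for replicate 1 and triangles for replicate 2. The ricolinostat triangles of Nfkb1, Nfkb2, Rela, Relb, Chuk and Nfkbia lie above every other point of their panels, and those of Rel, Ikbkb and Tnfaip3 do not.

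The other genes of the pathway on the panel also divided, but in other shares than the members, of which 66.7% were above and 11.1% below. Of 26 tested adaptors and kinases that act upstream of NF-kB, 12 (46.2%) stood above all other libraries in both ricolinostat replicate 2 libraries. Another 9 (34.6%) stood below. Ikbkg, the regulatory subunit of the kinase complex, was singled out after its values were seen because it completes the complex of Chuk and Ikbkb: it ran from 316 to 406 in the other 10 libraries and reached 3160.1 and 5675 in these 2. Of 20 tested receptors 7 were above and 3 below, and of 34 tested target genes 17 were above and 4 below, against 31.6% above and 23.1% below among all tested genes. The 3 measured other regulators, Cyld, Sigirr and Tollip, which restrain the pathway, were all above. Targets did not go one way. Tnf, a cytokine that NF-kB induces, reached 961 and 1394 against at most 149 elsewhere, whereas Icam1, an adhesion molecule it also induces, dropped to 92.5 and 38.4 against at least 1404 elsewhere, both genes again singled out after their values were seen. The labels give no cause for the departure of these 2 libraries, and its part in the ricolinostat results was not tested beyond leaving them out.

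**Figure D3:**
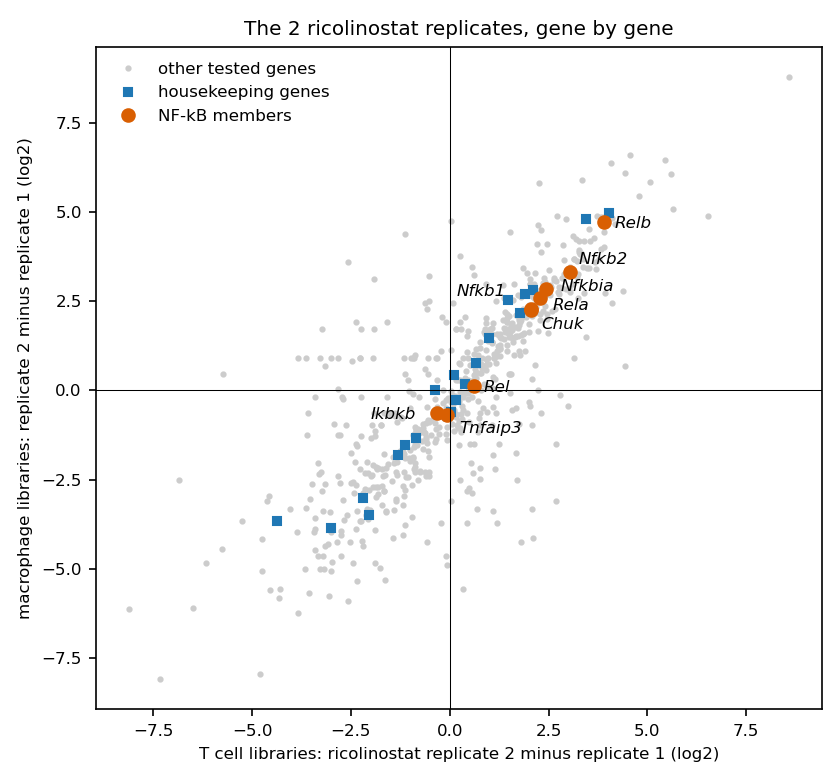
Log2 difference between ricolinostat replicate 2 and replicate 1 in T cells (x axis) and macrophages (y axis) for members (orange), housekeeping genes (blue) and the other tested genes (grey). Relb lies at 3.90 and 4.73, the farthest of the members, while Rel, Ikbkb and Tnfaip3 lie between -0.68 and 0.60 on both axes.

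The drug and cell type comparisons were tested with limma, with p-values adjusted over all tested genes by the Benjamini-Hochberg method at a threshold of 0.05. None of the 9 members passed in any of the 11 comparisons, with all libraries or without the ricolinostat replicate 2 libraries. With all libraries 0 members had an unadjusted p under 0.05 in any comparison, against 7 to 122 of the tested genes. Without those 2 libraries 1 member did under JQ1 in T cells (Tnfaip3), as did 248 of the 624 tested genes. Ricolinostat then had 1 library per cell type, and the values of Rel are given below. A difference that misses the threshold is not shown to be absent, and the intervals below give the sizes that remain possible.

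JQ1 in T cell libraries was the comparison with the most genes called against vehicle, 5.56% of 630 tested genes with all libraries and 16.3% of 624 without the ricolinostat replicate 2 libraries, and no member among them. Tnfaip3 had the largest member difference. It measured 4606 and 6112 under vehicle and 2206 and 3458 under JQ1, so both JQ1 libraries lay below both vehicle libraries. The log2 difference was -0.94 ± 0.52 (SE), adjusted p = 0.591. Without ricolinostat replicate 2 the SE was 0.32, the 95% interval ran from -1.85 to -0.03, and the adjusted p was 0.119.

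In all, 5 of 9 members (Nfkb1, Rel, Rela, Ikbkb and Tnfaip3) had both JQ1 T cell libraries below both vehicle libraries, but so did 54.6% of the tested genes. All 9 differences were below 0, with a median of -0.217 against -0.377 over all tested genes, and the sign depended on the scaling: 2 were above 0 after scaling to the housekeeping genes and 6 after centring each library on its median. Nfkb1 differed by -0.34 (adjusted p = 0.205 without ricolinostat replicate 2, 95% interval -0.79 to 0.11), and Ikbkb by -0.29 (adjusted p = 0.250, interval -0.74 to 0.15). Chuk and Nfkb2 differed least, by -0.06 and -0.08, and their groups overlapped. In the same libraries the summed T cell markers stood at 4126 to 4154 with vehicle and at 165 with JQ1, and the sum of 3 epithelial markers at 6442 to 7365 with vehicle and 16096 to 16245.5 with JQ1. Their part in the member differences was not tested.

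Around the members, the pathway lists held 4 genes that were lower with JQ1 in T cell libraries. None of 26 adaptors and kinases passed, with a median of -0.196. Among 20 receptors Cd27, a T cell costimulatory receptor that signals to NF-kB, was lower (65.8 and 65.99 under vehicle, 10.1 and 3.84 under JQ1, log2 difference -3.19, adjusted p = 0.0393). Of 31 target genes 3 were lower. Ltb, a lymphotoxin subunit, measured 755 and 735 under vehicle and 62.9 and 51.8 under JQ1 (-3.68, adjusted p = 0.0284). Ccl5, a T cell chemokine, measured 500.2 and 1071 against 30.1 and 37.9 (-4.40, adjusted p = 0.0327), and Ccr7, a lymph node homing receptor, 684 and 551 against 60.03 and 54.9 (-3.40, adjusted p = 0.0405). The summed T cell markers stood at 4126 to 4154 with vehicle and 165 with JQ1 in the same libraries, and their part in these 4 differences was not tested. Ltb measured 559 and 1075 in vehicle macrophage libraries, where the summed T cell markers were 228 to 349. Without ricolinostat replicate 2, the receptor Tlr1 was also lower (-1.53, adjusted p = 0.0467) and the neutrophil chemokine Cxcl5 higher (1.77, adjusted p = 0.0246).

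Ricolinostat in T cell libraries called 0 of 630 tested genes (0%) and no member, and 18 genes had an unadjusted p under 0.05. Without ricolinostat replicate 2 it called 0 of 624 (79 unadjusted). Rel had the lowest difference. It measured 2329.9 and 2967 under vehicle and 1280.2 and 1942 under ricolinostat, so both treated libraries lay below both vehicle libraries. Its log2 difference was -0.74 ± 0.52 (SE, adjusted p = 0.657), and -1.04 ± 0.27 with 1 ricolinostat library (adjusted p = 0.380, 95% interval -1.80 to -0.27). Rel, Ikbkb and Tnfaip3 were below without overlap, as were 28.7% of tested genes, and with 1 ricolinostat library so were 6 of 9 members and 59.6% of genes. For the members that stood apart in replicate 2, the direction rested on that library: Relb differed by 1.80 ± 1.25 with it and -0.15 ± 0.24 without it, Nfkb2 by 1.27 ± 1.02 and -0.25 ± 0.28, and Nfkbia by 1.11 ± 0.86 and -0.10 ± 0.24. The summed T cell markers in these libraries were 2637 and 3300.3 with ricolinostat against 4126 to 4154 with vehicle. Single T cell markers went both ways between the ricolinostat replicates. In replicates 1 and 2 Cd3g measured 576.6 and 45.6, and Cd3d 348.9 and 1159.5. The sum of 3 epithelial markers was 13826.5 and 8449 against 6442 to 7365. The part of the T cell and epithelial markers in the member differences was not tested. The member median was 0.735 with it (-0.0787 over all genes) and -0.254 without it (-0.221 over all genes).

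In macrophage libraries JQ1 called 0 of 564 tested genes (0%), with 7 at an unadjusted p under 0.05, and 0 of 550 without ricolinostat replicate 2 (82 unadjusted). Member differences lay between -0.11 and 0.31. Of the 9, 5 were above 0, with a median of 0.0744 against -0.198 over all genes, and after centring each library on its median all 9 were, with a median of 0.371 against 0.0987. Nfkbia was at the upper end, at 1539 and 2534 under vehicle and 2436 and 2459 under JQ1, so the groups overlapped (0.31, adjusted p = 0.999, and 0.690 without ricolinostat replicate 2). Rel measured 1860.4 and 2136 under vehicle and 2146 and 2517 under JQ1, so the groups did not overlap, although the nearest libraries were close (0.22, adjusted p = 0.999, 95% interval -0.35 to 0.79 without ricolinostat replicate 2). Rel was the 1 member higher without overlap, as were 10.6% of genes, and Ikbkb the 1 lower, as were 41% of genes.

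Ricolinostat in macrophage libraries called 0 of 564 genes (0%, 16 unadjusted) and 0 of 550 without ricolinostat replicate 2 (20 unadjusted). The picture was that of the T cell libraries: Relb differed by 2.48 ± 1.53 with replicate 2 and 0.11 ± 0.38 without it, Nfkb2 by 1.69 ± 1.16 and 0.02 ± 0.36, and Rela by 1.30 ± 0.96 and 0.00065 ± 0.203. Rel, at 1576 and 1712 against 1860.4 and 2136, was the 1 member whose groups did not overlap, lower as were 15.2% of genes (-0.28, adjusted p = 0.773, and -0.34, adjusted p = 0.997, without ricolinostat replicate 2). With 1 ricolinostat library Rel and Chuk were below without overlap, as were 33.1% of genes. With replicate 2 as the one ricolinostat library, left alone after replicate 1 was taken out and assumed to vary like the other groups, 6 members (Nfkb1, Nfkb2, Rela, Relb, Chuk and Nfkbia) were called higher than vehicle in each cell type, along with 32.7% of genes in T cells and 32.4% in macrophages. The same 6 were called higher than JQ1, along with 41.7% and 34.1% of genes.

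In the remaining drug contrast, ricolinostat against JQ1, 3.02% of genes were called in T cells and 0% in macrophages (35 unadjusted), with no member. Without ricolinostat replicate 2 the shares were 4.17% and 0% (47 unadjusted), again with no member. Nfkb1 and Rela were higher under ricolinostat without overlap in both cell types and Nfkbia in T cells, 3 and 2 of 9 members against 33.7% and 27.3% of genes. For Nfkb1 the nearest macrophage libraries measured 1815.09 with ricolinostat and 1814.43 with JQ1. Without ricolinostat replicate 2 the log2 differences in T cells were 0.04 for Nfkb1, 0.15 for Rela and 0.11 for Nfkbia. In macrophages they were 0.005 for Nfkb1 and 0.067 for Rela. Rel was lower in macrophages without overlap, as were 9.57% of genes.

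**Figure D4:**
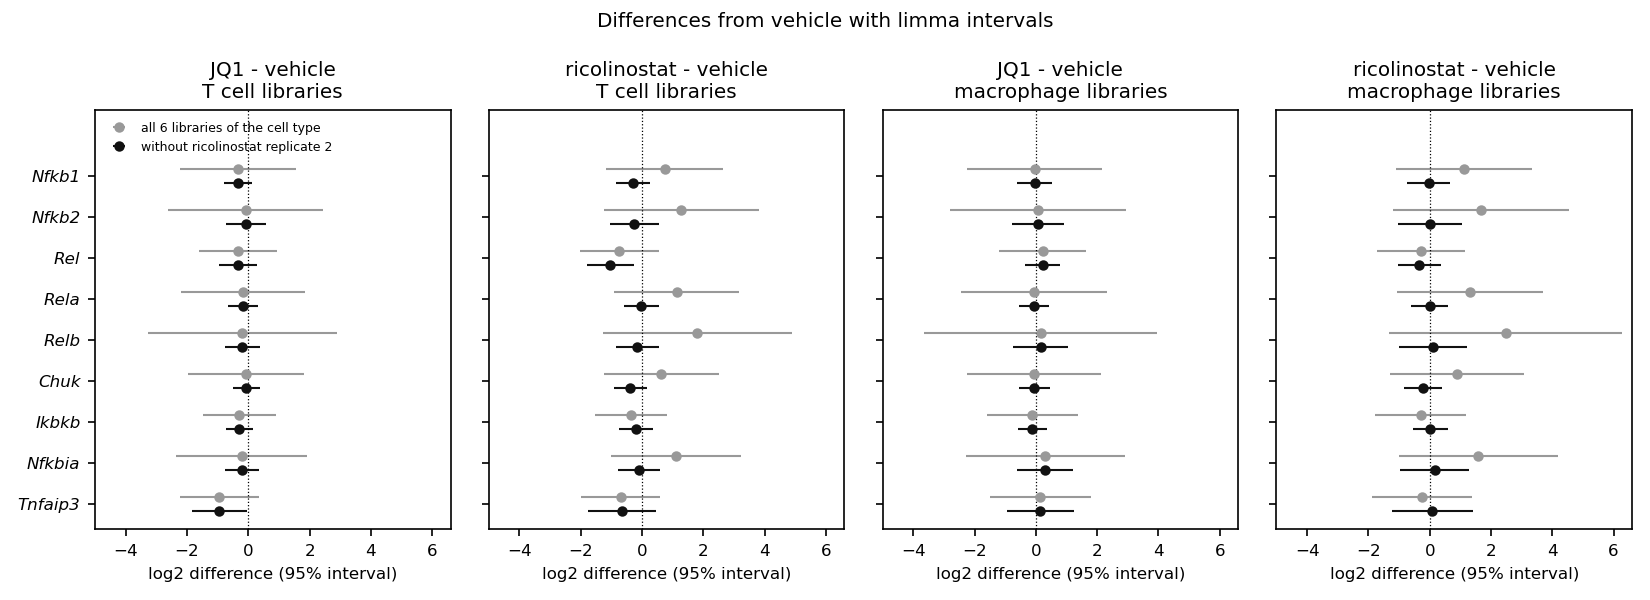
Log2 difference from vehicle with its 95% limma interval (x axis) for each member (y axis) in the 4 drug comparisons, with all 6 libraries of the cell type (grey) and without ricolinostat replicate 2 (black). Only the black interval of Tnfaip3 under JQ1 and that of Rel under ricolinostat, both in T cells, lie wholly below 0, and neither passed after adjustment.

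Between cell types the member signals were close, in libraries that share macrophage transcripts. Under vehicle 10.6% of 659 genes differed between macrophage and T cell libraries, or 23.6% of 649 without ricolinostat replicate 2, and no member. Rela differed by -0.0021, with a 95% interval of -2.11 to 2.11 with all libraries and -0.36 to 0.36 without ricolinostat replicate 2. Its value was 0.37 after centring each library on its median, which took the members above 0 from 2 to 7 of 9. Tnfaip3 and Rel were the 2 members lower in macrophage libraries without overlap, as were 39.2% of genes. The macrophage signals of Tnfaip3, 2475 and 4209.5, lay below both T cell values given above (-0.72, adjusted p = 0.675, and 0.237 without ricolinostat replicate 2), and Rel differed by -0.40 (adjusted p = 0.998 and 0.220).

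Under JQ1 5.46% of genes differed between the cell types, or 23.6% without ricolinostat replicate 2, and no member. Nfkb1, Chuk, Ikbkb and Nfkbia were higher in macrophages without overlap, 4 of 9 members against 36.9% of genes. All 9 differences were above 0, from 0.03 for Relb to 0.45 for Nfkbia (adjusted p = 0.997, and 0.275 without ricolinostat replicate 2). Their median of 0.157 was close to that over all tested genes, 0.149. After scaling to the housekeeping genes 4 of the 9 were above 0. Under ricolinostat 5.77% of genes differed, and no member, and the 2 groups overlapped for all 9. Without ricolinostat replicate 2 each cell type had 1 ricolinostat library, so the share of genes is not given. The drug effects were also compared between cell types. The JQ1 effect differed for 0.91% of genes (5.55% without ricolinostat replicate 2) and the ricolinostat effect for 0% (12 unadjusted, and 29 without ricolinostat replicate 2), again with no member. Tnfaip3 had the largest member value for JQ1, 1.09 ± 0.74 higher in macrophages (adjusted p = 0.9999, and 0.370 without ricolinostat replicate 2, interval -0.24 to 2.42).

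Among the pathway lists, 4 genes differed between the cell types under vehicle with all libraries, when 10.6% of all genes did. The receptors Il18r1, through which interleukin 18 signals, and Cd27 were lower in macrophage libraries, the target chemokine Cxcl5 was lower and the chemokine Ccl22 was higher, at 747 and 939 against 179 and 195. When 23.6% of all genes differed, without ricolinostat replicate 2, 1 of 26 adaptors and kinases was higher (Card9, an adaptor of myeloid lectin receptors, 0.66, adjusted p = 0.0345), 3 of 20 receptors were higher and 3 lower, and 2 of 33 target genes were higher and 6 lower. The 3 higher receptors were Tlr4, Tlr6 and Tlr7, which sense microbial products, and the 3 lower ones are not named here. Not every receptor of that family went this way: Tlr1 measured 42.7 and 53.4 in macrophage libraries against 114.7 and 95.6 in T cell libraries. Under JQ1 Il18r1, Cxcl5 and the inhibitory receptor Sigirr were lower in macrophage libraries with all libraries, when 5.46% of all genes differed. When 23.6% did, without ricolinostat replicate 2, 4 adaptors and kinases were higher and 1 lower, 4 receptors were higher and 3 lower, 2 target genes were higher and 3 lower, and Sigirr was again lower. Among them, Syk, a kinase downstream of myeloid receptors, measured 9372 and 9188 in macrophage libraries against 5686 and 5845 (0.69, adjusted p = 0.0375), and Tab1, a partner of the kinase upstream of the complex, 356 and 328 against 602 and 533 (-0.73, adjusted p = 0.029). Under ricolinostat Il12b, a cytokine subunit of activated myeloid cells, was higher, at 36.7 and 60.6 in macrophage libraries. Its T cell signals, 2.23 and 3.6, lay below the filter's signal of 20. Without ricolinostat replicate 2 this contrast set 1 library against 1, so its counts are not given. In T cell libraries Ltb was higher under ricolinostat than under JQ1 with all libraries, when 3.02% of all genes differed. The summed T cell markers stood at 2637 and 3300.3 with ricolinostat and at 165 with JQ1 in the same libraries. Their part in this difference was not tested.

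The order of the group means shows which conditions held the highest and lowest level of each member. Without ricolinostat replicate 2, the vehicle T cell group was highest for Nfkb1, Rel, Rela, Relb and Tnfaip3, the vehicle macrophage group for Chuk, the JQ1 macrophage group for Nfkb2 and Nfkbia, and the single ricolinostat macrophage library for Ikbkb. The JQ1 T cell group was lowest for Nfkb1, Rela, Ikbkb, Nfkbia and Tnfaip3. In this order the highest group was clear of the next only for Tnfaip3 and for Nfkbia, whose next group was 1 library. For Rela the vehicle means were 941.27 in T cells and 940.715 in macrophages. For Relb all 5 neighbouring steps overlapped. At the lower end the JQ1 T cell group overlapped the next group for Rela and Tnfaip3. With all 12 libraries, ricolinostat macrophages and then ricolinostat T cells came first for Nfkb1, Nfkb2, Rela, Relb, Chuk and Nfkbia, through replicate 2, and for each of the 9 members 4 or 5 of the 5 neighbouring steps overlapped. For Tnfaip3 the vehicle T cell group was clear of the next, JQ1 macrophages, in both orders.

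The panel genes most like each member were found by the root mean square difference of centred log2 signals, which is 0 for an identical pattern. Over all 12 libraries the measure is set largely by the ricolinostat replicate 2 libraries, and the 2 nearest genes were Chuk (0.148) and Stat3 (0.172) for Nfkb1, Vhl (0.17) and Bcl10 (0.187) for Nfkb2, Mif (0.246) and Tnfrsf13b (0.26) for Relb, and Map2k2 (0.121) and Il4ra (0.142) for Rela. Rel and Tnfaip3 had the same nearest pair, Cdkn1a (0.178 and 0.24) and Ccrl2 (0.182 and 0.31). For Chuk they were Nup107 (0.139) and Nfkb1 (0.148), for Ikbkb Map3k7 (0.117) and Tgfbr1 (0.145), and for Nfkbia Bcl10 (0.188) and C3 (0.2). Over the 10 other libraries most names changed. Map2k2 (0.0929) was still nearest to Rela, followed by Stat3 (0.0959), and Cdkn1a (0.181) to Rel, followed by Map3k1 (0.182). Nfkbia then had the member Nfkb2 (0.131) and Cebpb (0.133) nearest, Nfkb1 had Jak2 (0.0751) and Nfatc3 (0.0922), and Nfkb2 had Ripk2 (0.126) and Myc (0.13). The remaining members had Il4ra (0.109) and Cd14 (0.127) for Relb, Myc (0.0712) and Atg12 (0.0745) for Chuk, App (0.0826) and Map3k7 (0.0923) for Ikbkb, and Hsd11b1 (0.113) and Nlrp3 (0.141) for Tnfaip3.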

How the data were processed

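Per the labels, RNA was extracted with a column kit from purified cells and counted on the NanoString platform. The authors deposited a linear, already normalised signal for each gene in each library. This unit was read from the values. The sources used here do not give the normalisation method, and that step can shift all genes of a library together. Signals were log2-transformed after adding 1 and compared by limma 3.58.1 (R 4.3.3), which fitted a mean for each group and moderated the variances. P-values are two-sided and Benjamini-Hochberg adjusted. Log2 differences are on the transformed scale, and folds between libraries are ratios of the normalised signals. Testing left out the 20 housekeeping genes and required a signal above 20 in 2 or more libraries. Drug contrasts used the 6 libraries of a cell type, and cell type and interaction contrasts all 12. The fit was tested on simulated data.

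The members and the pathway and marker lists were chosen with earlier results of these data known. Named genes are the members, genes of the pathway lists past the threshold (if none, at most the 2 largest) and the 2 nearest genes per member. Where a list had several genes past the threshold, not all were named. Other genes are said to be chosen after their values were seen, or are markers or values given for contrast. Alternatives were a pseudocount of 10, no filter, housekeeping and median scaling, the groups compared alone, leaving out both ricolinostat replicate 2 libraries, and leaving out each library. Promoter windows are RefSeq's for GRCm38.p6. Those of Nfkb1, Relb and Ikbkb were not used here, and 1 listed gene is not reported here. Figures were drawn with matplotlib 3.10.9.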

Additional observations from a re-analysis of the deposited data

Results flagged for a closer look

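Rel was the member whose libraries moved to opposite sides of vehicle with JQ1 in the 2 cell types: both JQ1 T cell libraries lay below both vehicle T cell libraries, and both JQ1 macrophage libraries lay above both vehicle macrophage libraries. The same pattern held for 23 of the 659 tested genes (3.49%), and the opposite one for 21 (3.19%). The gaps were narrow. In T cells the nearest libraries measured 2281 with JQ1 and 2330 with vehicle, and in macrophages 2146.0 and 2136.5. For the members as a set, the sign of the JQ1 differences depended on the scaling, as given above. In the T cell libraries the summed T cell markers stood at 165 with JQ1 against 4126 to 4154 with vehicle, and their part was not tested. The JQ1 effect on Rel was 0.56 higher in macrophages on the log2 scale. limma's interaction test did not pass, with an adjusted p of 0.9999 with all 12 libraries and 0.388 without the ricolinostat replicate 2 libraries.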

How the results depend on the processing

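The count of members called stayed at 0 in all 11 comparisons under each of the 6 alternatives that kept or dropped settings other than single libraries. Leaving out 1 library at a time, it ranged from 0 to 6 for ricolinostat minus vehicle and for ricolinostat minus JQ1 in each cell type, and stayed at 0 in the other 7 comparisons. The 6 were reached only without ricolinostat replicate 1, when replicate 2 alone stood for the drug and was assumed to vary like the other groups. Nfkb1, Nfkb2, Rela, Relb, Chuk and Nfkbia were then called higher (Relb by 3.75 in T cells, adjusted p = 0.00289, and by 4.84 in macrophages, adjusted p = 0.00275, against vehicle), along with 32.7% of genes in T cells and 32.4% in macrophages. Against JQ1 the shares were 41.7% and 34.1%.

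Counts over all genes moved more. Without both ricolinostat replicate 2 libraries, JQ1 minus vehicle in T cells went from 35 to 102 genes and the JQ1 interaction from 6 to 36. Macrophages minus T cells went from 70 to 153 under vehicle and from 36 to 153 under JQ1. Under ricolinostat that contrast called 38 genes with all libraries, and without replicate 2 it had 1 library per group. With only the groups compared, JQ1 minus vehicle in T cells called 110 genes and the JQ1 interaction 36. Macrophages minus T cells then called 129 under vehicle, 88 under JQ1 and 0 under ricolinostat. The contrast of ricolinostat minus JQ1 in T cells went from 19 to 0. A pseudocount of 10 gave 7 there and 10 for the JQ1 interaction, and median centring gave 17 for macrophages minus T cells under ricolinostat. The cause of these changes was not tested. No paired analysis was possible because the labels carry no replicate numbers that groups share. The SE of Relb for JQ1 minus vehicle in T cells was 1.25 with all libraries and 0.20 without ricolinostat replicate 2, so precision depended on those libraries. Which of depth and number of libraries limits it further was not tested.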
